A study of Sus scrofa with 23 samples.

Results

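The genes described here are 33 genes of fatty acid oxidation and ketone metabolism, taken as a list of symbols, and all 33 were found among the 26687 gene symbols of the annotation. They were measured by sequencing total RNA, depleted of ribosomal RNA, from the renal cortex of 23 newborn pigs. The pigs carried the genotype labels CFTR-/- (CF, 11 pigs), CFTR+/- (HET, 6 pigs) and Wild-type (WT, 6 pigs). CFTR is the chloride and bicarbonate channel that is defective in cystic fibrosis, and the disrupted allele is in the germline, so it is shared by all tissues of a pig. The pigs came from heterozygous parents, were taken on the day of birth and are no inbred strain. WT and HET pigs together form the group non-CF (12 pigs). Which pigs were littermates is not marked.

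Cells burn long-chain fatty acids by binding them to coenzyme A, passing them across the mitochondrial membranes on carnitine, and cutting them down by repeated rounds of dehydrogenation, hydration, a further dehydrogenation and thiolysis. Peroxisomes shorten very long and branched chains. The kidney cortex, largely proximal tubule, is known for covering much of its energy demand by this route, and it can also burn ketone bodies, small fuels that the liver makes from fatty acids. Circulating fatty acids and ketone bodies were among the metabolites the study followed in newborn pigs with and without CFTR, and the comparison here asks whether kidney transcripts of the genes that handle them differed with genotype.

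The libraries held 32901281 to 52952273 estimated counts, and every one of the 33 genes had counts in all 23 libraries. CFTR itself was lowest in the WT libraries, at 0.263 to 0.729 TPM (a level per length of transcript, scaled to the same total in every library), against 1.88 to 3.15 TPM in the libraries labelled HET and 2.28 to 5.28 TPM in those labelled CF. The WT range stood apart from both others, and CFTR was higher in CF than in WT by 3.14 ± 0.19 (log2 fold change ± SE, adjusted p = 1.24e-10, edgeR). CFTR was thus lowest in the libraries labelled WT and highest in those labelled CF. Summed over transcripts, these values do not show the disruption itself and do not check the labels. Groups are used as labelled, and the direction of every genotype difference given here rests on the labels. A multidimensional scaling was made from the genes that differ most between libraries, after a filter for low counts. On its first axis the libraries with the Y-linked transcript EIF1AY (6 of 11 CF, 5 of 6 HET and 2 of 6 WT) separated from those without it. The presence of EIF1AY was used as a term in an alternative fit. On the other axis, pigs numbered 1 to 6 and 12 to 18 (13 libraries, the earlier-numbered pigs) lay apart from pigs numbered 7 to 11 and 19 to 23 (10 libraries, the later-numbered pigs). What the numbers mark is not stated, and each set held all 3 genotypes. The sets were told apart by an earlier analysis of these same data and are no independent label. The 14 proximal tubule markers were all expressed and summed to 2278 to 3855 TPM in WT, 2599 to 4490 in HET and 2346 to 4362 in CF. Among tissues rich in these enzymes, 6 hepatocyte markers summed to 1.36 to 181 TPM, highest in CF 5 and with a median of 5.19 TPM, 4 skeletal muscle markers summed to 2.31 to 4.67 TPM and 6 adipocyte markers to 6.24 to 26.2 TPM, with PLIN1 at a median of 0.119 TPM.

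The levels of the 33 genes ran from about 1 TPM to several times 100 TPM. FABP3, a fatty acid binding protein of heart and kidney, was the highest, with a median of 606 TPM over the 23 libraries. ECHS1, the enoyl-CoA hydratase of the mitochondrial spiral, followed with 288 TPM, and HADH, ACADM, HADHA and ECI2 also stood above 100 TPM. A further 23 genes lay between 10 and 100 TPM, and BDH1, CD36, CPT1B and FABP1 lay under 10 TPM. Within a gene the highest library exceeded the lowest by 1.49-fold (CRAT and ECI1 were the steadiest) to 5.24-fold (FABP1), with a median of 2.21-fold.

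**Figure D1:**
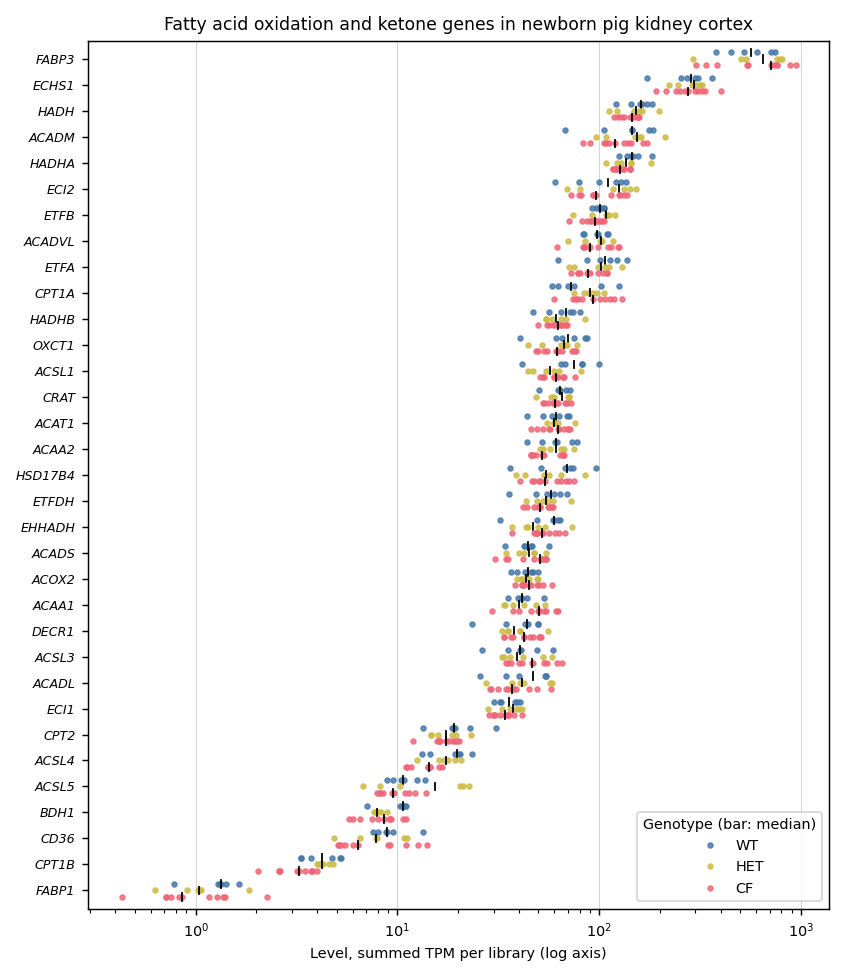
Level of each of the 33 genes in each library, as TPM summed over the gene's transcripts on a log axis, by genotype. FABP3 stands highest and FABP1 lowest, and the 3 genotypes lie over each other for nearly every gene.

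Across the genes the CF and non-CF kidneys were close. For all 33 genes the CF and non-CF ranges of TPM overlapped, as they did for every one of 16297 genes with a median of 1 TPM or more (0.0% without overlap). By the quasi-likelihood test of edgeR, adjusted over 20921 genes, 1 of the 33 genes passed an adjusted p of 0.05, against 0.349% of all genes tested. That gene was ACSL4, which was lower in CF. At an unadjusted p under 0.05 stood 3 of the 33 genes (ACAA1 higher, ACSL4 and CPT1B lower), against 13.7% of all genes. The log2 fold changes ran from -0.42 (CPT1B) to 0.25 (ACAA1) with a median of -0.05, and 11 of the 33 were above 0, against 49.8% of all genes. Among the earlier-numbered pigs alone 18 of 33 were above 0 (median 0.01), and among the later-numbered pigs alone 11 of 33 (median -0.12). The 95% confidence interval lay within 0.5 of 0 on the log2 scale for 31 of the 33 genes, the exceptions being ACSL5 and CPT1B. In bulk tissue, fewer cells of a type and less RNA per cell cannot be told apart. In the same comparison 11 of 14 proximal tubule markers were above 0 (median log2 fold change 0.15) and 7 of 8 markers of the later segments, from Henle's loop to the distal tubule, were below 0 (median -0.16), none of them past the adjusted limit. Of the hepatocyte markers 3 of 4 tested were below 0 (median -0.84), also without a call. Over all libraries 4 of the 6 listed hepatocyte markers had a median under 1 TPM. The part of these markers in the values of the 33 genes was not tested.

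**Figure D2:**
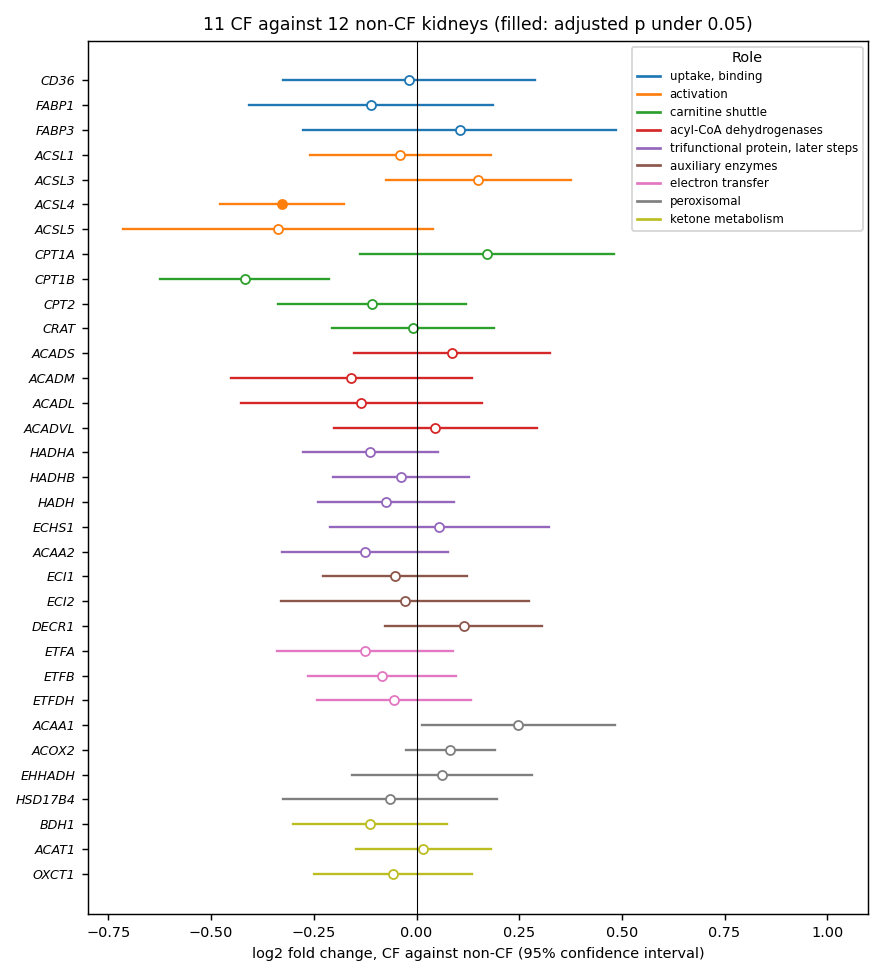
Log2 fold change of each gene between 11 CF and 12 non-CF kidneys with its 95% confidence interval, grouped by role. ACSL4 alone passes an adjusted p of 0.05, and the intervals of 30 genes include 0.

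Uptake and binding come first in the pathway. CD36, a membrane protein that takes up long-chain fatty acids, had medians of 8.86 TPM in WT, 7.86 in HET and 6.39 in CF, and its log2 fold change in CF against non-CF was -0.02 ± 0.15. FABP3 ranged from 381 to 744 TPM in WT (median 565), from 292 to 804 in HET (median 649) and from 302 to 943 in CF (median 710.4). The higher CF median stood inside wide and overlapping ranges, and the log2 fold change of 0.10 had a 95% confidence interval from -0.28 to 0.49. FABP1, the liver type of binding protein, was near 1 TPM in every genotype, with medians of 1.33 TPM in WT, 1.04 in HET and 0.855 in CF, and a log2 fold change of -0.11 ± 0.14. Most of that level came from a transcript that the annotation does not type as mRNA, whose share of the gene's TPM had a median of 91.6%. FABP3 exceeded FABP1 by 286 to 1780 times per length in single libraries.

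Activation to acyl-CoA is the work of the long-chain acyl-CoA synthetases. ACSL1, the form of most oxidative tissues, was the highest with a median of 62.5 TPM and a log2 fold change of -0.04 ± 0.11 in CF against non-CF. ACSL3, a form of the endoplasmic reticulum and lipid droplets, had 41.4 TPM and 0.15 ± 0.11. ACSL4, which prefers arachidonic acid and other polyunsaturated chains, had 14.6 TPM and lies on chromosome X (positions 89760863 to 89838103 of Sscrofa11.1, minus strand).

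ACSL4 ranged from 13.2 to 23.4 TPM in WT (median 19.7), from 12.4 to 20.6 TPM in HET (median 17.4) and from 11.09 to 16.7 TPM in CF (median 14.4). All 11 CF libraries lay below the non-CF median, 8 of the 12 non-CF libraries lay above the highest CF library, and the ranges still overlapped. How many of all genes show such counts was not determined. The log2 fold change in CF against non-CF was -0.33 ± 0.07 (95% confidence interval -0.48 to -0.18), a fold of 0.797, with an adjusted p of 0.0479 by edgeR. CF against WT alone gave -0.31 ± 0.09 (adjusted p = 0.110, edgeR), and CF against HET alone -0.35 ± 0.09 (adjusted p = 0.223, edgeR). HET against WT gave 0.04 ± 0.10. The call was near the limit: leaving out 1 library at a time gave adjusted p from 0.0261 to 0.0942 (edgeR), and it held in 6 of 23 such fits (without CF 2, CF 3, CF 4, HET 13, HET 15 or WT 12). With the Y-linked transcript as a term the log2 fold change was -0.33 and the adjusted p 0.0515 (edgeR). The ACSL4 call was also lost with limma-voom, without a filter, by the Mann-Whitney test and among the earlier-numbered pigs alone, where the log2 fold change was -0.14, and over all these settings and the other alternatives, left-out libraries included, the adjusted p ran from 0.00239 to 0.714. The 250 bases before the annotated start of ACSL4 (chrX:89838104-89838353, minus strand, RefSeq, Sscrofa11.1) are shown because this gene passed the limit. They are 53.2% G or C and hold none of the 5 motifs counted further on, so no letter is in capitals.
ACSL4: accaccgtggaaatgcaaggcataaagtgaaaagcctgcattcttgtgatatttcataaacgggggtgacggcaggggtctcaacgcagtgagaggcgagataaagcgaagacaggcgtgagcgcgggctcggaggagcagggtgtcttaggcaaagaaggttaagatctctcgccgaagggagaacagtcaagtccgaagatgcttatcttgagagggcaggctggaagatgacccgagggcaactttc

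ACSL5, a synthetase known mainly from intestine and liver, split the HET pigs. It was 20.5, 21.1 and 22.7 TPM in HET 21, HET 20 and HET 19, and 6.72 to 10.3 TPM in the other 3 HET pigs. The WT libraries held 8.85 to 13.7 TPM and the CF libraries 7.92 to 13.8 TPM. The 3 high HET libraries, all from later-numbered pigs, stood above every other library. The log2 fold change was 0.57 ± 0.23 in HET against WT (adjusted p = 0.587) and -0.59 ± 0.20 in CF against HET (adjusted p = 0.356), neither past the limit (edgeR). Among the earlier-numbered pigs alone both signs turned, to -0.23 and 0.16. In CF against non-CF the value was -0.34 ± 0.18. The same 3 HET pigs had a summed level of 6 hepatocyte markers of 28.9 to 68.0 TPM, against 4.32 to 24.0 TPM in the other HET pigs, 2.05 to 16.2 in WT and 1.36 to 181 in CF, where CF 5 was highest. The median level of ALB was 0.123 TPM, and the part of these markers in the ACSL5 values was not tested.

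The carnitine shuttle carries long acyl chains into mitochondria. CPT1A, the liver and kidney form of the first and rate-limiting step, had a median of 88.3 TPM, and CPT1B, the muscle form of the same step, 3.76 TPM. The ratio of CPT1A to CPT1B per length ran from 12.3 to 23.9 in WT, from 18.3 to 26.3 in HET and from 16 to 52.7 in CF. The CF range took in the HET range, reached down into the WT range, and had a median of 31.3.

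CPT1B ranged from 3.33 to 5.26 TPM in WT (median 4.24), from 4.01 to 4.81 TPM in HET (median 4.24) and from 2.03 to 3.98 TPM in CF (median 3.25). All 11 CF libraries lay below all 6 HET libraries, the highest CF library just under the lowest HET library. CPT1B was the 1 of 33 genes without overlap there, against 0.0368% of genes with a median of 1 TPM or more. CF and WT overlapped for all 33 genes (0.356% of genes did not overlap), and HET and WT likewise (1.23%). The log2 fold change in CF against non-CF was -0.42 ± 0.10 (95% confidence interval -0.62 to -0.21) with an adjusted p of 0.0568, just outside the limit by edgeR. It passed the limit by DESeq2 (adjusted p = 0.00998), with the number set as a term (adjusted p = 0.0490, edgeR), and without CF 2 or without CF 4. CF against WT gave -0.35 ± 0.12 (adjusted p = 0.179), CF against HET -0.49 ± 0.12 (adjusted p = 0.201), both by edgeR, and HET against WT 0.14 ± 0.14.

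The other genes of the shuttle stood closer to 0 in CF against non-CF. CPT1A gave 0.17 ± 0.15, CPT2, the transferase of the inner membrane, -0.11 ± 0.11, and CRAT, which moves acetyl groups onto carnitine, -0.01 ± 0.10.

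**Figure D3:**
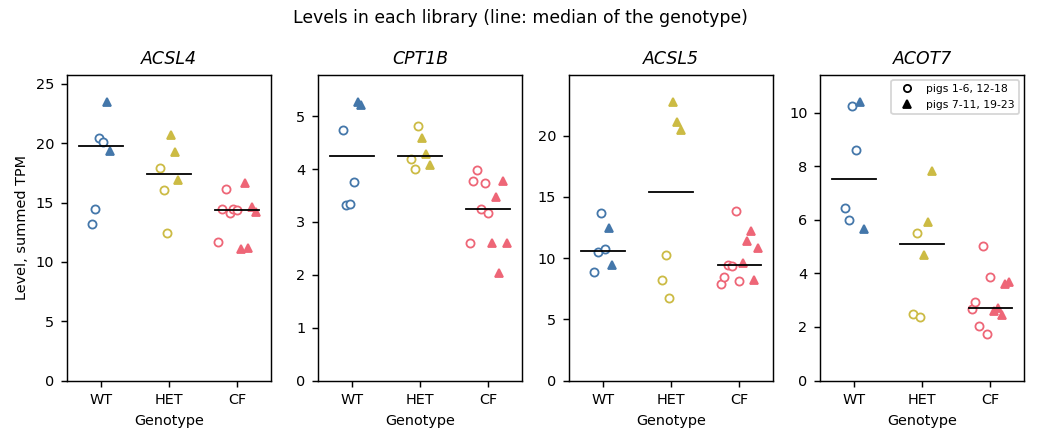
TPM of ACSL4, CPT1B, ACSL5 and ACOT7 in each library by genotype, with the number sets marked by symbol and a line at each genotype's median. CF libraries sit low for ACSL4, CPT1B and ACOT7, and 3 HET pigs stand above every other library for ACSL5.

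The acyl-CoA dehydrogenases open each round of the spiral, and each takes a range of chain lengths. ACADM for medium chains had the highest median at 138 TPM, followed by ACADVL for very long chains at 98.5 TPM, ACADS for short chains at 46.6 TPM and ACADL, the long-chain form, at 38.9 TPM. None passed the limit in any comparison. For CF against non-CF ACADM stood at -0.16 ± 0.14, ACADL at -0.13 ± 0.14, ACADS at 0.09 ± 0.12 and ACADVL at 0.05 ± 0.12.

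The trifunctional protein carries out the later steps on long chains and is built of an alpha subunit (HADHA) and a beta subunit (HADHB). HADHA ranged from 125 to 184 TPM in WT (median 146), from 108 to 180.0 TPM in HET (median 136) and from 116 to 142 TPM in CF (median 127). The CF range of HADHA lay within the non-CF range. On the count scale the difference was -0.11 ± 0.08 and did not pass the limit (adjusted p = 0.580, edgeR). HADH, which dehydrogenates medium and short chains at the same step, had a log2 fold change of -0.07 ± 0.08. HADHB gave -0.04 ± 0.08, ECHS1 0.06 ± 0.13 and ACAA2, the mitochondrial thiolase, -0.13 ± 0.10.

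HADHA and HADHB lie head to head on chromosome 3, with HADHB on the minus strand (112712894 to 112753121) and HADHA on the plus strand (112753343 to 112797627). The ratio of HADHA to HADHB per length ran from 1.76 to 2.65, a 1.51-fold spread, while HADHA alone spread 1.70-fold and HADHB 1.80-fold. The ratio was above 1 in all 23 libraries. The 221 bases between the annotated starts (chr3:112753122-112753342, plus strand, RefSeq, Sscrofa11.1), shown because this pair of genes shares them, are 62.9% G or C and hold none of the 5 motifs.
HADHB-HADHA interval: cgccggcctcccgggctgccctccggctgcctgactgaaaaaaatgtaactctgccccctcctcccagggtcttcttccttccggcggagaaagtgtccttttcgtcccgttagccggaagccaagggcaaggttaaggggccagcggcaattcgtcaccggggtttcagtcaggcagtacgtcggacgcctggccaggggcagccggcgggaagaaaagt

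Auxiliary enzymes prepare unsaturated chains for the spiral. ECI2, an enoyl-CoA isomerase, had a median of 114 TPM, ECI1, its mitochondrial counterpart, 35.4 TPM, and DECR1, the dienoyl-CoA reductase, 42.2 TPM. In CF against non-CF the log2 fold changes were -0.03 ± 0.15 for ECI2, -0.05 ± 0.09 for ECI1 and 0.11 ± 0.09 for DECR1, and none passed the limit. The 250 bases before the annotated start of ECI2 (chr7:2446173-2446422, minus strand, RefSeq, Sscrofa11.1, 76.4% G or C) are shown because ECI2 differed most between the number sets and holds a rare motif. It is TCAAGGTCA, the form bound by estrogen-related receptors, read on the opposite strand and beginning 218 bases before the start. Capitals mark it.
ECI2: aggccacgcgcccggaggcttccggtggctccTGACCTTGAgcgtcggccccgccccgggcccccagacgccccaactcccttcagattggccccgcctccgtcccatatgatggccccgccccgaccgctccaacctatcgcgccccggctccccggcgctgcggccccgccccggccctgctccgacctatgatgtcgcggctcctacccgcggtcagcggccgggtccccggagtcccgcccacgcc

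Motifs were counted on both strands in the 250 bases before the annotated start, which may not be the start used in kidney, of 19556 genes and of the 33. The nuclear receptor motif AGGTCA was present in 7 of 33 (21.2%) against 12.2% of all promoters. TCAAGGTCA, which contains AGGTCA, was present in 2 of 33 (6.06%) against 0.332%, namely in ECI2 and FABP1. A pair of AGGTCA copies separated by any 1 base, the form bound by PPAR with RXR, was present in 0 of 33 against 0.0256%. The GC box GGGCGG was present in 19 of 33 (57.6%) against 45.9%, and CCAAT in 14 of 33 (42.4%) against 31.9%. These counts describe letters in a window and were not tested.

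Electron transfer flavoprotein passes the electrons of the dehydrogenases to the respiratory chain. Its subunits ETFA and ETFB stood at medians of 98.2 and 99.2 TPM, with a ratio of 0.675 to 1.29, and its oxidoreductase ETFDH at 55.2 TPM. None passed the limit in CF against non-CF, at -0.13 ± 0.10 for ETFA, -0.08 ± 0.09 for ETFB and -0.05 ± 0.09 for ETFDH.

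Peroxisomal oxidation was represented by 4 genes. ACAA1, the peroxisomal thiolase, ranged from 35.5 to 53.1 TPM in WT (median 41.3), from 33.9 to 54.1 TPM in HET (median 40.0) and from 29.4 to 62.9 TPM in CF (median 50.1). The CF range enclosed both others. The log2 fold change in CF against non-CF was 0.25 ± 0.11 (95% confidence interval 0.01 to 0.48), with an adjusted p of 0.336 (edgeR). ACOX2, the oxidase for branched chains and bile acid intermediates, was at 0.16 ± 0.06 in CF against WT (adjusted p = 0.200, edgeR) and at 0.16 ± 0.07 in HET against WT (adjusted p = 0.597, edgeR). Both comparisons share the WT libraries. In CF against non-CF ACOX2 was at 0.08 ± 0.05, and in CF against HET at 0.01 ± 0.06. EHHADH, the L-bifunctional enzyme, gave 0.06 ± 0.11 in CF against non-CF, and HSD17B4, the D-bifunctional enzyme, -0.06 ± 0.13. The ratio of EHHADH to HSD17B4 per length ran from 0.585 to 1.26.

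Ketone bodies are interconverted by BDH1, activated for use by OXCT1 and split by the thiolase ACAT1. OXCT1 had a median of 64.5 TPM, ACAT1 60.0 TPM and BDH1 8.57 TPM. In CF against non-CF the log2 fold changes were -0.06 ± 0.09 for OXCT1, 0.02 ± 0.08 for ACAT1 and -0.11 ± 0.09 for BDH1, each with a 95% confidence interval inside 0.5 of 0.

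Between the labels taken in pairs, none of the 33 genes passed the adjusted limit by edgeR. In CF against WT 0 of 33 were called, against 0.336% of 21434 genes, and 4 stood at an unadjusted p under 0.05 (ACAA1 and ACOX2 higher, ACSL4 and CPT1B lower), against 14%. In CF against HET 0 of 33 were called, against 0.0%, and 3 stood at an unadjusted p under 0.05 (ACSL4, ACSL5 and CPT1B, all lower), against 9.83%. DESeq2 called CPT1B there, 1 of 33 against 0.266% of genes. In HET against WT 0 of 33 were called, against 0.00467%, and 2 stood at an unadjusted p under 0.05 (ACSL5 and ACOX2, both higher), against 8.0%. Of these 2, 0 were left with the Y-linked transcript as a term, and the count was 1 with the number set as a term. In HET against WT 27 of 33 genes were above 0 (median 0.12), where 48.8% of all genes were. This count was 26 with the number set as a term and 18 among the later-numbered pigs alone. In that set the 3 HET pigs lay on the EIF1AY side of the first scaling axis and the 2 WT pigs on the other. Genotype and this transcript cannot be told apart there. Over all pigs of these 2 labels 12 of 14 proximal tubule markers were also above 0 (median 0.21). All 5 hepatocyte markers tested (median 3.19) and all 5 erythroid markers (median 0.63) were above 0 as well, none past the adjusted limit. Of the 6 hepatocyte markers 4, and of the 5 erythroid markers 2, had a median under 1 TPM over all libraries. The part of these markers was not tested. CF against HET had 10 of 33 genes above 0 (median -0.07), where 51.4% of all genes were, and 15 of 33 among the earlier-numbered pigs alone. Over all pigs of both labels 5 of 5 hepatocyte markers (median -2.41), 5 of 5 erythroid markers (median -0.21) and 7 of 8 loop and distal tubule markers (median -0.21) were below 0, and their part was not tested. CF against WT had 17 of 33 genes above 0 (median 0.00), where 49.8% of all genes were. There 12 of 14 proximal tubule markers (median 0.21, 1 of them, the water channel AQP1, past the adjusted limit by edgeR and named after its values were seen) and 5 of 5 hepatocyte markers (median 0.89) were above 0 and 6 of 8 loop and distal tubule markers (median -0.07) below 0, and their part was not tested. These 3 comparisons share libraries and are given side by side only.

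The levels also differed between the number sets. Because the sets were told apart in these same data, the differences between them are descriptive only. On the TPM scale 29 of the 33 genes had a higher median in the later-numbered than in the earlier-numbered pigs, with a median ratio of 1.21, where 69.0% of 16297 genes did, with a median ratio of 1.07. ECI2 differed most, with a median of 80.9 TPM in the earlier-numbered and 132 TPM in the later-numbered pigs. ACSL3 (36.7 and 54.2 TPM), ACADM (108 and 159 TPM) and FABP3 (523 and 753 TPM) followed. CD36 went the other way (9.18 and 6.26 TPM), as did BDH1, FABP1 and OXCT1. The 33 levels summed to 1867 to 3022 TPM in the earlier-numbered and to 2505 to 3359 TPM in the later-numbered pigs. By genotype the sums were 1867 to 3320 TPM in WT, 2117 to 3166 in HET and 2053 to 3359 in CF. The proximal tubule markers summed to 2278 to 3780 TPM in the earlier-numbered and 3088 to 4490 TPM in the later-numbered pigs. The medians of the summed markers were 9.38 and 15.8 TPM for adipocytes, and 736 and 942 TPM for the loop and distal segments. The part of these markers in the difference was not tested.

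**Figure D4:**
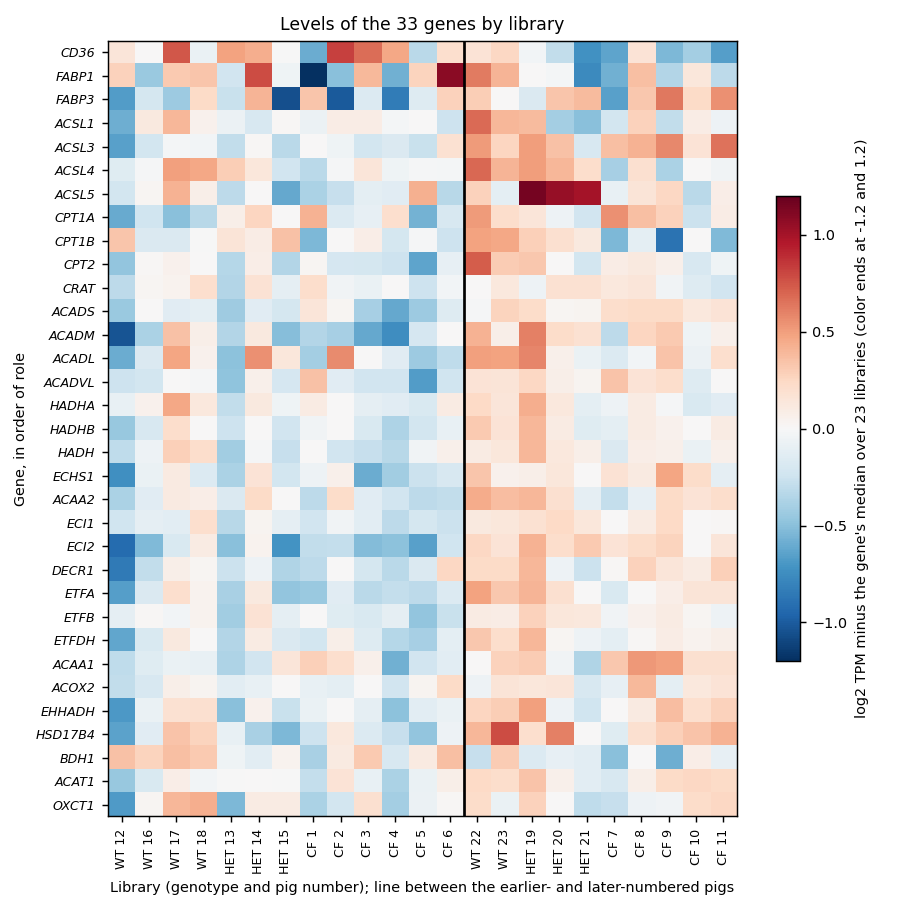
Log2 TPM of each gene in each library minus the gene's median over the 23 libraries, with the earlier-numbered and later-numbered pigs apart and genotypes side by side within each. Most genes are higher in the later-numbered pigs, CD36 is not, and WT 12 has low levels for many genes.

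Within the number sets the comparison of CF with non-CF gave different counts. Among the 13 earlier-numbered pigs 0 of 33 genes were called (0.0% of all genes), and none had ranges without overlap (0.0614% of genes). Among the 10 later-numbered pigs 2 of 33 were called, ACSL4 and CPT1B, against 2.27% of all genes, and this pair also had ranges without overlap, against 4.76%. ACSL4 ran from 11.09 to 16.7 TPM in the 5 later-numbered CF pigs and from 16.9 to 23.4 TPM in the 5 non-CF pigs beside them. CPT1B ran from 2.03 to 3.76 TPM and from 4.07 to 5.26 TPM. The log2 fold changes there were -0.56 ± 0.07 for ACSL4 (adjusted p = 0.00239) and -0.68 ± 0.12 for CPT1B (adjusted p = 0.0124), both by edgeR. In these 10 pigs the marker sums of 2 lists also stood apart without overlap. The sums of the other lists overlapped, among them the proximal tubule (3525 to 4362 TPM in CF and 3088 to 4490 TPM in non-CF). The loop and distal tubule markers summed to 584 to 839 TPM in CF and 1044 to 1378 TPM in non-CF, and the hepatocyte markers to 1.36 to 3.72 and 4.55 to 68.0 TPM. Over all libraries 4 of the 6 hepatocyte markers had a median under 1 TPM. Among the earlier-numbered pigs both sums overlapped (619 to 749 and 564 to 1008 TPM, 4.5 to 181 and 2.05 to 24.0 TPM). The part of these markers in the 2 calls was not tested. For the earlier-numbered pigs the log2 fold changes were -0.14 ± 0.09 (adjusted p = 0.714) and -0.21 ± 0.14 (adjusted p = 0.689, edgeR). The difference of the CF effect between the sets was -0.42 ± 0.12 for ACSL4 (adjusted p = 0.198) and -0.47 ± 0.18 for CPT1B (adjusted p = 0.363), by edgeR. It passed the limit for none of the 33 genes, where 0.0191% of all genes were called, so the effects are not shown to differ between the sets. Among the later-numbered pigs alone ACSL4 was also called in CF against WT (1 of 33, against 0.263% of genes), and ACSL4, ACSL5 and CPT1B in CF against HET (3 of 33, against 2.42%). With DESeq2 on all pigs ACSL4 and CPT1B, 2 of 33, were called in CF against non-CF, where 2.33% of genes were.

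**Figure D5:**
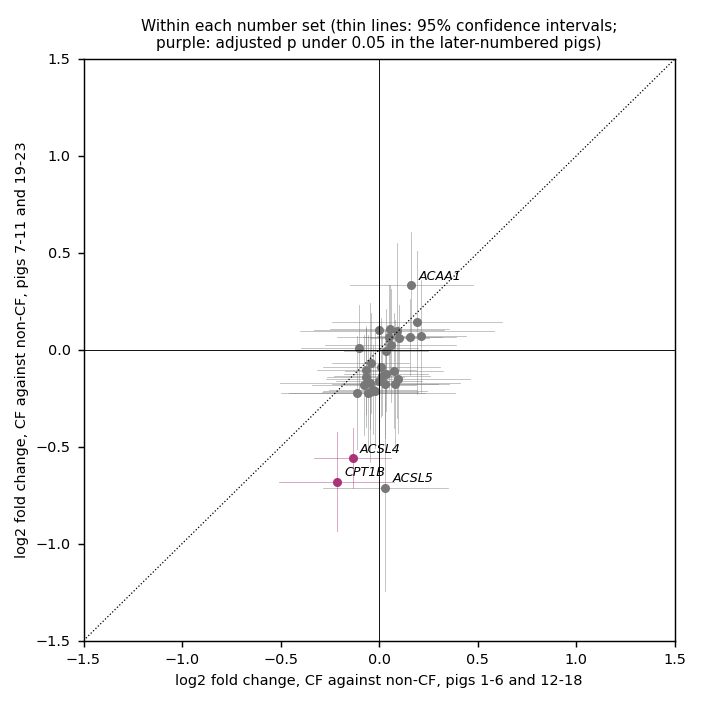
Log2 fold change of each of the 33 genes in CF against non-CF among the earlier-numbered pigs (horizontal axis) and among the later-numbered pigs (vertical axis), with 95% confidence intervals. Most genes lie near 0 in both, and ACSL4, CPT1B and ACSL5 lie below -0.5 in the later-numbered pigs.

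The pathway beyond the 33 genes was read from a list of 90 others, of which 85 were in the annotation and 83 were tested in CF against non-CF. Of these 1 was called, ACOT7, against 0.349% of all genes, and 14 stood at an unadjusted p under 0.05 (8 higher, 6 lower), against 13.7%. ACOT7, a thioesterase that frees long-chain fatty acids from coenzyme A and so reverses activation, ranged from 5.67 to 10.4 TPM in WT (median 7.51), from 2.38 to 7.81 TPM in HET (median 5.10) and from 1.75 to 5.04 TPM in CF (median 2.70). All 11 CF libraries lay below all 6 WT libraries, where 0.356% of genes did not overlap, and HET overlapped both. The log2 fold change was -1.01 ± 0.21 in CF against non-CF (adjusted p = 0.0371) and -1.26 ± 0.23 in CF against WT (adjusted p = 0.0154), both by edgeR. In CF against HET it was -0.71 ± 0.23 (adjusted p = 0.345, edgeR). Leaving out 1 library at a time, the call in CF against non-CF held in 12 of 23 fits and that in CF against WT in 22 of 23 (not without WT 17, adjusted p = 0.0564, edgeR). For CF against non-CF limma-voom, the earlier-numbered pigs alone and the Mann-Whitney test did not give the call.

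FABP5, another binding protein, had medians of 61.9 TPM in WT, 48.8 in HET and 29.9 in CF. Its log2 fold change in CF against non-CF was -0.74 ± 0.21 (adjusted p = 0.103) and in CF against WT -0.90 ± 0.25 (adjusted p = 0.0952), both by edgeR. It passed the limit in CF against non-CF with the number set as a term (0.707% of genes) and among the later-numbered pigs alone, and in CF against WT with DESeq2 (2.67% of genes), with the number set as a term (0.802%) and among the later-numbered pigs alone. PRKAA1, a catalytic subunit of the energy sensor AMPK, stood at 0.17 ± 0.05 in CF against non-CF (adjusted p = 0.129, edgeR). TXNIP, a glucose-responsive arrestin, was at 0.65 ± 0.19 in CF against WT (adjusted p = 0.108) and 0.55 ± 0.21 in HET against WT (adjusted p = 0.565), both by edgeR. DESeq2 called FABP5 (adjusted p = 0.0459), PRKAA1 (adjusted p = 0.0377) and TXNIP (adjusted p = 0.0225) in CF against WT. In HET against WT HNF4A, a nuclear receptor of liver and proximal tubule, was at 0.51 ± 0.15 (adjusted p = 0.443) and HACL1, a peroxisomal lyase, at 0.50 ± 0.15 (adjusted p = 0.467), both by edgeR. In CF against HET MLYCD, which removes the malonyl-CoA that blocks CPT1, was at -0.42 ± 0.14 (adjusted p = 0.357, edgeR). UCP3, a mitochondrial carrier, was at 2.70 ± 0.94 there (adjusted p = 0.361, edgeR), on levels of 0.0225 to 7.97 TPM in CF and 0.0470 to 0.453 TPM in HET.

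Over all pigs the transcriptional regulators PPARA and PPARGC1A and the PPAR target PDK4 did not pass the limit. PPARA, the nuclear receptor that drives fatty acid oxidation genes in fasting, gave 0.14 ± 0.10 in CF against non-CF, and PPARGC1A, a coactivator, -0.01 ± 0.09. PDK4, which blocks pyruvate oxidation, was at medians of 48.5 TPM in WT, 60.1 in HET and 45.6 in CF, with -0.16 ± 0.17. Among the earlier-numbered pigs alone all 3 signs turned, to -0.02 for PPARA, 0.19 for PPARGC1A and 0.20 for PDK4. Among the later-numbered pigs alone PDK4 was lower in CF by the test, at -0.67 ± 0.14 (adjusted p = 0.0236, edgeR, where 2.27% of all genes were called), while PPARA at 0.30 ± 0.09 and PPARGC1A at -0.24 ± 0.10 did not pass the limit. The difference of the CF effect between the sets was -0.87 ± 0.30 for PDK4 (adjusted p = 0.301), -0.44 ± 0.15 for PPARGC1A (adjusted p = 0.299) and 0.32 ± 0.19 for PPARA (adjusted p = 0.576), none past the limit (edgeR).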

How the data were processed

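Kidney cortex RNA of 23 newborn pigs was measured, 1 library per pig. Per the labels and the study's methods the authors pseudoaligned reads to Sscrofa11.1 transcripts with kallisto. For 77689 transcripts the authors deposited an unnormalized estimated count and a TPM value per library. Both were added up by gene symbol and the counts rounded (63% of transcript values were not whole). How kallisto divides reads among transcripts can move TPM without moving counts.

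Tests used edgeR 4.0.16 in R 4.3.3 with TMM normalization, filterByExpr, the quasi-likelihood test and Benjamini-Hochberg adjustment over all genes tested, with a limit of 0.05. A fit of CF and non-CF pigs and a fit of the 3 labels with shared spread were made. Scripts were tested on simulated data with 200 changed genes. Alternatives were DESeq2 1.42.0, limma-voom, other scalings and filters, the number set as a term and each set alone, the study's Mann-Whitney test, the Y-linked transcript (100 or more counts of EIF1AY) as a term, and leaving out single libraries. The Y-linked term was chosen after seeing the data, and the number sets were told apart by an earlier analysis of these data. The members and lists were chosen with earlier results of these data known. The text names all 33 members, the other pathway genes that its naming rule picked by p, and PPARA, PPARGC1A and PDK4. Some genes of the ketone list are not reported here. P-values measure the spread between pigs.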

Additional observations from a re-analysis of the deposited data

Results flagged for a closer look

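Levels of the 33 genes in WT and in HET pigs were searched for single libraries far from the others of their genotype, by the gap to the nearest library over the group's range. Of 66 groups tested 5 had such a library, where chance gives about 1 in 20. CD36 was 13.3 TPM in WT 17, against 7.54 to 9.47 TPM in the other WT pigs. FABP1 was 1.83 TPM in HET 14, against 0.627 to 1.06 TPM in the other HET pigs. BDH1 was 7.07 TPM in WT 22, lower than the 10.3 to 11.0 TPM of the other WT pigs. DECR1 was 55.8 TPM in HET 19, against 32.8 to 40.5 TPM, and ACAT1 was 75.9 TPM in the same pig, against 55.1 to 62.7 TPM. The 11 CF pigs were too many for this search.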

How the results depend on the processing

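Of 2020 values recomputed under alternatives for 60 results, 1898 kept their direction and side of the limit (or, for counts, stayed within 1.5 times), 25 newly passed and 39 no longer passed a limit, and 58, in 20 results, changed sign, the cause of which was not tested. In CF against non-CF the count of the 33 genes called, 1, became 2 with DESeq2, with the number set as a term and among the later-numbered pigs alone, and 0 with limma-voom, without a filter, with the Y-linked transcript as a term, among the earlier-numbered pigs alone and by the Mann-Whitney test. Leaving out 1 library gave 0 to 2. Called genes rose from 0 to 1 in CF against WT and to 3 in CF against HET among the later-numbered pigs alone, and to 1 in CF against HET with DESeq2. Among the earlier-numbered pigs alone the log2 fold change of CF against non-CF changed sign to 0.096 for CD36, 0.079 for ACSL1, 0.031 for ACSL5, 0.074 for CRAT, 0.036 for HADHB, -0.000158 for ECHS1, 0.010 for ECI2, 0.014 for ETFDH, 0.029 for HSD17B4, -0.025 for PPARA, 0.19 for PPARGC1A, 0.20 for PDK4. Among the later-numbered pigs alone it changed sign to -0.0051 for ACAT1 and 0.010 for OXCT1, and HET against WT to -0.013 for ACSL4 and -0.099 for CPT1B. For ACSL5 the earlier-numbered pigs alone gave -0.23 in HET against WT and 0.16 in CF against HET. Leaving out 1 library, values of CF against non-CF that crossed 0 ran from -0.11 to 0.034 for CD36, from -0.082 to 0.015 for ACSL1, from -0.065 to 0.024 for CRAT, from -0.030 to 0.099 for ACADVL, from -0.031 to 0.11 for ECHS1, from -0.098 to 0.032 for ECI2, from -0.0036 to 0.10 for EHHADH, from -0.030 to 0.038 for ACAT1, from -0.051 to 0.029 for PPARGC1A, and HET against WT of ACSL4 from -0.019 to 0.12. No paired analysis was possible because the labels do not mark which pigs were littermates. With these group sizes differences of 0.5 on the log2 scale lay inside the confidence interval of ACSL5 and CPT1B in CF against non-CF, and of ACAA1, CPT1A, CPT1B, FABP1 and FABP3 in CF against WT.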
